A study of Mus musculus with 6 samples.

Results

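The genes described here encode the adaptors, IRAK kinases and TRAF proteins that act directly below Toll-like receptors: Myd88, Ticam1, Ticam2, Tirap, Irak1, Irak2, Irak3, Irak4, Traf3 and Traf6. They were chosen by name. A probe set, the group of short probes by which an Affymetrix array reads a transcript, was taken for a gene where the platform annotation gave it that symbol alone. Of the 10 genes 7 had such a probe set, among the 18194 genes measured this way; Ticam2, Irak4 and Traf3 were not analysed here. The 7 genes had 16 probe sets, and the brightest of a gene's probe sets, by its mean over all arrays, stood for the gene. Those 7 probe sets read at or above the median of all probe sets on all 6 arrays.

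RNA came from peritoneal macrophages drawn into the abdominal cavity by thioglycollate, an irritant, in mice of mixed C57BL/6 x 129Sv strain. The Akirin2 KO mice carried LysM-Cre, a recombinase expressed from the lysozyme locus of myeloid cells, and floxed Akirin2 (LysM-Cre+;Akirin2fl/fl). The other mice were labelled wild-type, with no Cre named. Cells of each genotype were unstimulated (0 h) or were given 100 ng/ml of lipopolysaccharide (LPS, from the outer membrane of bacteria) for 2 or 4 h. There was a single array for each of the 6 conditions. Age, sex and the number of mice behind a sample are not in the labels.

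Toll-like receptors recruit adaptors through a shared domain. MyD88 assembles IRAK4 with IRAK1 or IRAK2 into a complex that engages TRAF6, a ubiquitin ligase, from which the kinases that activate NF-kB and MAP kinases are turned on; TIRAP brings MyD88 to receptors at the membrane. TRIF, encoded by Ticam1, serves TLR3 and internalised TLR4 and leads through TRAF3 to interferon genes, with TRAM, encoded by Ticam2, as its bridge to TLR4. IRAK-M, encoded by Irak3, is found mainly in monocytes and macrophages and restrains the MyD88 complex during LPS tolerance.

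The upstream sequences of the members that passed the test of the LPS effect given below, Irak3, Myd88 and Irak2, are shown with that of Irak1, which did not, so that what lies before their starts can be read beside the values. Each is the run of 250 bases before a RefSeq start on GRCm38.p6, written 5′ to 3′ on the gene's strand. Capitals mark matches to a kB-like motif (GGGA, any 4 bases, then CC) or an ISRE-like motif (GAAA, any 2 bases, then GAAA) on either strand. RefSeq's table holds 2 starts of Irak3.
Irak3, start at the lower coordinate, minus strand, chr10:120201598-120201847: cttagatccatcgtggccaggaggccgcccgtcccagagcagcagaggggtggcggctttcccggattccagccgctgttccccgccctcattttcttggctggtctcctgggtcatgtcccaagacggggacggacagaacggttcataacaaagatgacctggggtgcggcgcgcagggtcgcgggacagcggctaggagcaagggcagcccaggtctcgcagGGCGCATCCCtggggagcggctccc
Irak3, start at the higher coordinate, minus strand, chr10:120202131-120202380: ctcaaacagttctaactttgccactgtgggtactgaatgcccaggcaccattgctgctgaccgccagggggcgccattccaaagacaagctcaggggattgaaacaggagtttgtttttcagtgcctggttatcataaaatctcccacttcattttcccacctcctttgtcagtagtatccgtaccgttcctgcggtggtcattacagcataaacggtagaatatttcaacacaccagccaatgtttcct
Myd88, minus strand, chr9:119340019-119340268: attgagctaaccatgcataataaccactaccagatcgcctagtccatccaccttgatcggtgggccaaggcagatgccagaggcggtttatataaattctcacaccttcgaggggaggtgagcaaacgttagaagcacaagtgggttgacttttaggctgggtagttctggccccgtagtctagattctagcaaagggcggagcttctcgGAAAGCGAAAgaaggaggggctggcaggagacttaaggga
Irak2, plus strand, chr6:113638217-113638466: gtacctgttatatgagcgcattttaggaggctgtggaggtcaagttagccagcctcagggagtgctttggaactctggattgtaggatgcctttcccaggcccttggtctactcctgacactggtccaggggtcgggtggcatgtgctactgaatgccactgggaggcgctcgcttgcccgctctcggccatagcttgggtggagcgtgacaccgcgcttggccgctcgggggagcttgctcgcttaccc
Irak1, minus strand, chrX:74023919-74024168: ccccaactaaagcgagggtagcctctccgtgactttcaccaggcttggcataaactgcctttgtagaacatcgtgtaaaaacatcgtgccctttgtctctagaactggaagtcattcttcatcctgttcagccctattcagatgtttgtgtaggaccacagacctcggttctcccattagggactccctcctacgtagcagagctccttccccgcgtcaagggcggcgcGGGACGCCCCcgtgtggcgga

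The 7 measured members had 10 such windows, counting every start. The kB-like letters lay in windows of 3 members, Irak1, Irak3 and Traf6, and in 17.6% of all 32851 windows of the table. That share is of single windows, whereas Irak1, Irak3 and Tirap each had more than 1, so it is not a like count. The ISRE-like letters lay in the window of Myd88 alone, at positions -40 to -31 counted from its start, and in 2.98% of all windows. The AP-1-like letters TGANTCA were in 0 of the 10 windows and in 6.75% of all. The match in Irak3 lay at -25 to -16 from its start, on the opposite strand, and the other start of Irak3 had none. The Irak1 windows, from starts 3 bases apart, held the same kB-like match, although the LPS effect on Irak1 did not pass the test. Neither motif was shared by the 3 members that passed.

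The deposited values were log2 expression per probe set, from 2.26 to 14.2 over 45101 probe sets, and correlations between arrays lay between 0.958 and 0.989. Akirin2 read 5.18, 5.54 and 4.91 at 0, 2 and 4 h in KO, against 7.43, 7.47 and 7.33 in wild-type, so that 21.0%, 26.2% and 18.7% of the wild-type level was left in KO. All 8 macrophage markers were above the floor described below, and Csf1r, the receptor of the macrophage growth factor M-CSF, read between 12.5 and 12.7, although Itgam read only 3.06 to 3.47. The neutrophil markers Cxcr2 and Ngp, the B cell factor gene Pax5, Cd3d, Cd3g, the mast cell markers Mcpt4 and Fcer1a, and the eosinophil markers Epx, Prg2 and Ccr3 were below the array median on every array. Others of the same lists were above it on at least 1 array: the B cell genes Cd79a, Cd79b and Ms4a1 reached 4.02, 3.75 and 4.59, Cd3e 4.21 and Siglecf 4.07, while Ncr1, Cpa3, Tpsb2 and Camp stayed at or under 3.49. S100a8, an abundant neutrophil gene, read between 7.61 and 9.06.

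Of the adaptors and kinases, Irak3, Myd88 and Irak2 transcripts were higher after LPS in both genotypes, whereas Irak1, Ticam1, Tirap and Traf6 did not pass the test in their representative probe sets. No replicate exists for any condition, so the test was an additive limma fit over the 6 arrays with LPS time and genotype as terms, Benjamini-Hochberg adjusted over the 13587 genes that reached the array median on at least 1 array. It left 2 residual degrees of freedom, and its p-values measure how alike an LPS effect was in both genotypes, not the spread between animals. At 2 h 3 of 7 members rose, where 3.96% of all genes did. At 4 h 2 of 7 rose, against 7.76% of all genes, and 0 fell at either time. Over all genes 538 rose and 393 fell at 2 h, and 1055 rose and 1034 fell at 4 h. With each array centred 541 rose and 254 fell at 2 h. Members had a median LPS effect of 0.41 at 2 h and 0.25 at 4 h on the log2 scale, and all genes had -0.042 and -0.026.

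**Figure D1:**
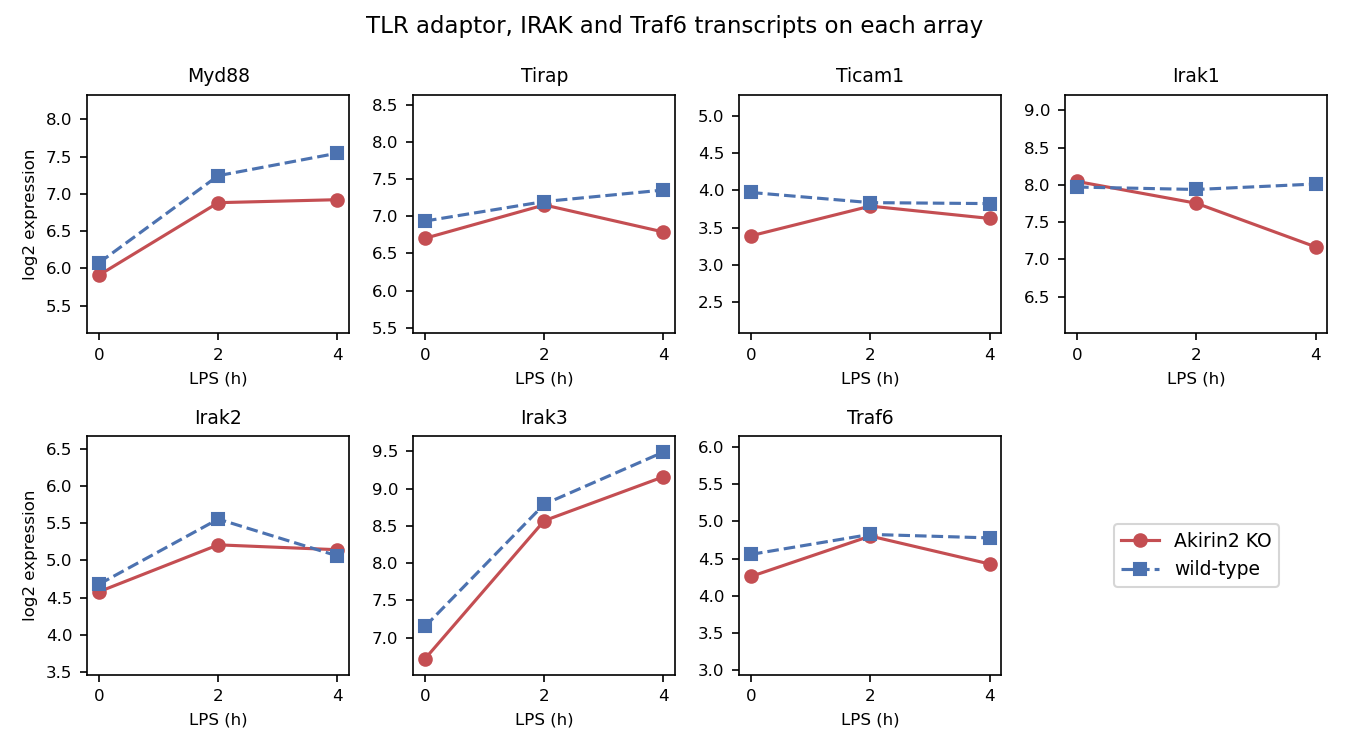
Log2 expression (y axis, each panel spanning the same number of log2 units) of the representative probe set of each measured member against hours of LPS (x axis), with 1 point per array, Akirin2 KO in red circles and wild-type in blue squares. Irak3 and Myd88 climb in both genotypes, Irak2 is highest at 2 h, and Irak1 is level in wild-type while its KO value at 4 h lies lowest.

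Irak3, the inhibitory member of the kinase family, had the largest LPS effect of the 7. Its log2 value was 6.72, 8.57 and 9.16 at 0, 2 and 4 h in KO, and 7.15, 8.79 and 9.49 in wild-type. Every stimulated array lay above both unstimulated arrays, and the 4 h arrays were the highest in each genotype. Irak3 rose by 1.75 at 2 h (SE 0.15, adjusted p = 0.000289 in limma) and by 2.39 at 4 h (SE 0.15, adjusted p = 3.16e-05), which is 3.36-fold and 5.25-fold. The second Irak3 probe set, 1430704_at, read 4.10, 5.11 and 5.02 in KO and 3.85, 5.96 and 5.67 in wild-type. It was higher after LPS as well, by 1.56 at 2 h and 1.37 at 4 h (adjusted p = 0.00556 and 0.0055 in a limma fit of every probe set), but was highest at 2 h and not at 4 h.

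Myd88, the adaptor shared by nearly all Toll-like receptors, read 5.91, 6.88 and 6.92 at 0, 2 and 4 h in KO, and 6.07, 7.24 and 7.55 in wild-type. All 4 stimulated arrays exceeded both unstimulated ones, and from 2 to 4 h the value differed by 0.040 in KO and by 0.30 in wild-type. Myd88 rose by 1.07 at 2 h (SE 0.16, adjusted p = 0.00632) and by 1.24 at 4 h (SE 0.16, adjusted p = 0.00139), or 2.10-fold and 2.37-fold.

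Irak2, a relative of IRAK1 that takes part in sustained signalling, read 4.58, 5.21 and 5.14 in KO and 4.68, 5.56 and 5.06 in wild-type. Its stimulated arrays again lay above the unstimulated ones, and its highest value was the wild-type array at 2 h. Irak2 rose by 0.75 at 2 h (SE 0.16, adjusted p = 0.0297), a 1.68-fold effect. At 4 h the effect was 0.47 (SE 0.16) with an adjusted p of 0.092, so it did not pass at that time.

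The remaining members had LPS effects that missed the threshold. Traf6, the ubiquitin ligase, read 4.26, 4.80 and 4.43 in KO and 4.56, 4.82 and 4.78 in wild-type, with effects of 0.41 at 2 h (adjusted p = 0.189) and 0.19 at 4 h (adjusted p = 0.475). Its probe sets disagreed: 1421377_at, which read between 2.88 and 3.74 near the array median, passed at both times in the fit of every probe set (0.76, adjusted p = 0.033, and 0.70, adjusted p = 0.0264). It reached the array median on the 4 stimulated arrays only, so it entered that fit through the arrays where it read higher. In that fit 3.67% of 24253 probe sets rose at 2 h and 6.84% at 4 h. Among the other Traf6 probe sets, 1421376_at had effects of 0.53 and 0.36 and 1443288_at of -0.12 and -0.12, neither past the test, and 1446940_at stayed below the median on every array.

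Tirap, the membrane-sorting adaptor, read 6.70, 7.15 and 6.79 in KO and 6.94, 7.20 and 7.35 in wild-type, with effects of 0.35 (95% interval -0.035 to 0.74) and 0.25 (-0.14 to 0.64). Ticam1, which encodes TRIF, read 3.39, 3.79 and 3.62 in KO and 3.97, 3.83 and 3.82 in wild-type, close to the array medians of 3.18 to 3.23. Its effects were 0.13 (-0.26 to 0.53) and 0.042 (-0.35 to 0.44). These intervals reach 0.74 for Tirap and 0.53 for Ticam1, so equal expression before and after LPS was not shown.

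Irak1, the kinase that is modified and degraded as the MyD88 complex fires, read 8.05, 7.75 and 7.17 in KO, and 7.97, 7.94 and 8.01 in wild-type. The wild-type arrays lay within 0.074 of each other, whereas the KO array at 4 h was the lowest of the 6. Its LPS effects were -0.16 (95% interval -0.66 to 0.34) and -0.42 (-0.92 to 0.081). The direction turned with the probe set: 1460649_at had LPS effects of 0.085 and 0.18, 1448668_a_at of -0.079 and 0.038, and 1438857_x_at of -0.12 and -0.21, none past the test.

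Of the 3 neutrophil markers above the floor, 1 passed as higher at each time after LPS, where 3.96% of all genes did at 2 h and 7.76% at 4 h. Camp reached the floor only through stimulated arrays, where it read higher. S100a8 read 7.74, 8.25 and 8.80 at 0, 2 and 4 h in KO and 7.61, 8.44 and 9.06 in wild-type, whereas S100a9 read 6.70, 6.44 and 6.34 in KO and 6.65, 6.56 and 6.09 in wild-type. The summed level of all 5 annotated neutrophil markers was 8.41, 8.69 and 9.11 at 0, 2 and 4 h in KO. In wild-type it was 8.32, 8.87 and 9.29. That sum is weighted to S100a8, its brightest gene, and includes Cxcr2 and Ngp, which lay below the floor. The part of these markers in the LPS effects was not tested.

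**Figure D2:**
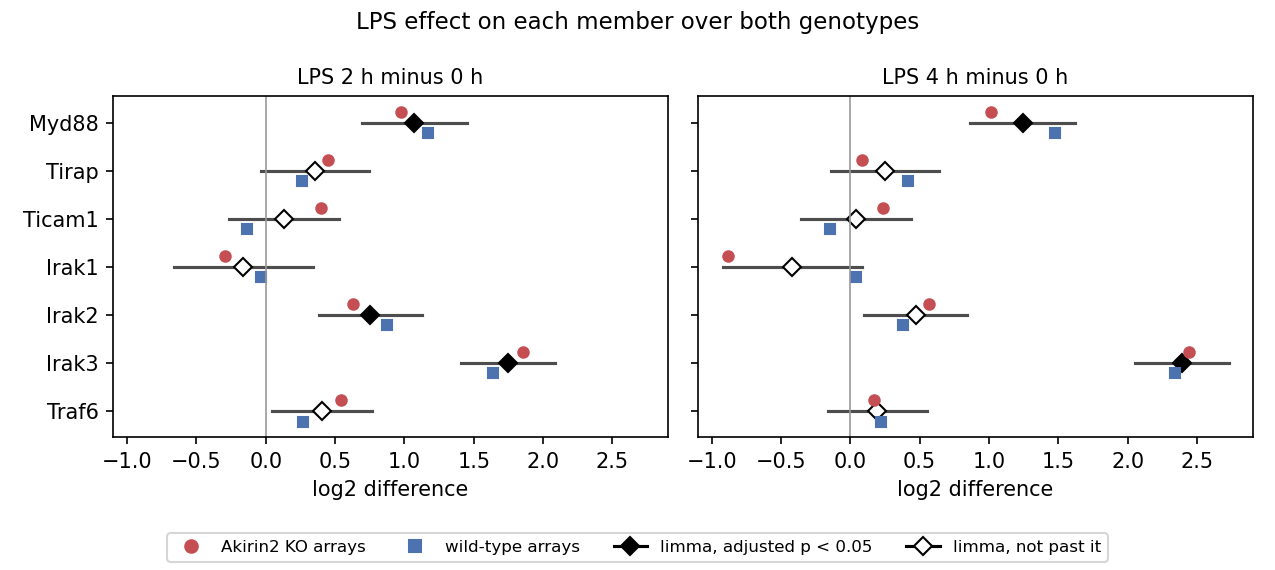
Log2 difference (x axis) from 0 h at 2 h (left) and 4 h (right) for each member: red circles are the difference between 2 KO arrays, blue squares that between 2 wild-type arrays, and diamonds the limma estimate over both genotypes with its 95% interval, filled where the adjusted p was under 0.05. Irak3 and Myd88 are filled at both times and Irak2 at 2 h, and the red and blue marks of Irak1 lie apart at 4 h.

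Within single genotypes, the members were also counted where 2 arrays differed by at least 2-fold (a log2 difference of 1), which has no test. In KO 1 of 7 members, Irak3, was that much higher at 2 h, against 2.44% of all genes, and 2 were at 4 h, Irak3 and Myd88, against 4.07%. In wild-type 2 were at 2 h (2.26% of all genes) and 2 at 4 h (3.72%), again Irak3 and Myd88. Myd88 stood near this limit, at 0.97 and 1.01 in KO and at 1.17 and 1.47 in wild-type. Between 2 and 4 h 0 members moved 2-fold in either genotype, where 1.52% of all genes did in KO and 2.42% in wild-type.

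Between genotypes, no member passed the test, although all 7 estimates lay below 0. The fit gave 0 of 7 members called in either direction, against 1.95% of all genes. The unadjusted p was under 0.05 for 2 members, Myd88 and Irak3, and for 15.4% of all genes. The median of the members was -0.28 on the log2 scale (KO minus wild-type over the 3 times) and that of all genes -0.011. Of all genes 52.3% had an estimate below 0. What this test asks is whether a difference recurs at all times. A difference between mice or preparations would recur too, and cannot be told apart from genotype here.

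Myd88 averaged 6.57 ± 0.57 in KO and 6.95 ± 0.78 in wild-type (SD over the 3 times, n = 3). Its differences were -0.17, -0.36 and -0.62 at 0, 2 and 4 h, so KO was lower at every time, and the fit gave -0.38 (SE 0.13, adjusted p = 0.22). Irak3 averaged 8.15 ± 1.28 in KO and 8.48 ± 1.20 in wild-type (SD, n = 3 times). Its differences of -0.43, -0.22 and -0.33 were the least scattered of the 7, with an estimate of -0.33 (SE 0.12, adjusted p = 0.243). Irak2 differed least, by -0.12 (SE 0.13, adjusted p = 0.721), and its KO array at 4 h read 0.083 above wild-type.

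Tirap had differences of -0.23, -0.046 and -0.56, and Traf6 of -0.30, -0.022 and -0.35, so for both the genotypes were closest at 2 h. Their estimates were -0.28 (SE 0.14, adjusted p = 0.382) and -0.22 (SE 0.13, adjusted p = 0.461). The weaker Tirap probe set, 1418685_at, read higher in KO at all 3 times (3.47, 3.70 and 3.76, against 3.23, 3.58 and 3.32 in wild-type), opposite to the representative one, with 0.27 (adjusted p = 0.41). The direction for Tirap therefore depends on the probe set, and neither passed. The probe set 1421376_at of Traf6 was also opposite, at 0.23 (adjusted p = 0.525).

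Ticam1 was the only member whose 3 KO values all lay below its 3 wild-type values, a separation that 6.20% of all genes had in this direction. The difference was -0.58 at 0 h and only -0.047 at 2 h, and the fit gave -0.28 (SE 0.14, adjusted p = 0.399). Among the 15 member probe sets above the floor 5 separated the genotypes in this way, against 6.04% of all probe sets, and 3 of the 5 belonged to Irak1. The fifth, 1443288_at of Traf6, reached the array median on 2 wild-type arrays and on no KO array. It passed the floor only through the genotype where it read higher, so its separation is no independent result.

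**Figure D3:**
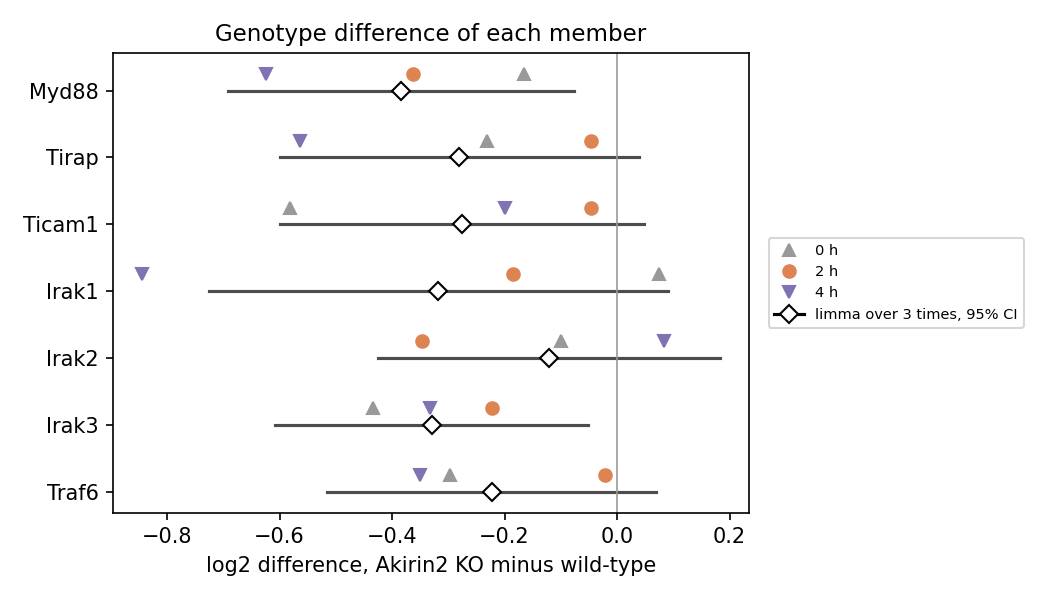
Log2 difference of Akirin2 KO minus wild-type (x axis) for each member at 0, 2 and 4 h (coloured marks, 1 pair of arrays each) and as the limma estimate over the 3 times (open diamonds with 95% intervals; none had an adjusted p under 0.05). All 7 estimates lie between -0.38 and -0.12, and the 4 h mark of Irak1 lies farthest from 0.

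The 4 probe sets of Irak1 placed its genotype difference at different times. In 1460649_at the values were 5.41, 5.56 and 5.70 at 0, 2 and 4 h in KO, and 5.95, 5.96 and 6.01 in wild-type, so KO minus wild-type was -0.54 before LPS and -0.31 at 4 h. In 1448668_a_at they were 3.86, 3.66 and 3.88 in KO and 4.15, 4.20 and 4.21 in wild-type. In 1438857_x_at they were 4.30, 4.06 and 3.86 in KO and 4.39, 4.39 and 4.41 in wild-type, a difference of -0.085 at 0 h and -0.55 at 4 h.

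In all 4 the wild-type arrays were nearly level, and KO was lower at 2 h and 4 h. At 0 h the representative 1438120_x_at alone read higher in KO, by 0.075. The suffix _x_at marks probes that may also bind other transcripts, and both such probe sets held the gap that was widest at 4 h. The estimates were -0.32 (1438120_x_at and 1438857_x_at), -0.39 (1448668_a_at) and -0.42 (1460649_at), with adjusted p-values of 0.474, 0.348, 0.214 and 0.174 in the fit of every probe set. Without the 4 h arrays the representative probe set gave -0.055, so its estimate rested mainly on that pair.

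Marker levels and RNA quality were compared in the same arrays. The genotypes did not overlap in the summed mesothelial and fibroblast level, the summed resident macrophage level and the Actb measure. They overlapped in the summed macrophage, neutrophil, B cell, T and NK cell, mast cell and eosinophil levels and in the Gapdh measure. Each sum is weighted to its brightest genes. KO lay below wild-type in both sums that did not overlap, and wholly below it in 6.20% of all genes. In the Actb measure KO lay above wild-type, and the share of genes with KO wholly above was not counted. Of 7 mesothelial and fibroblast markers above the floor, 1 was called lower in KO (Col1a2), with a median of -0.62, whereas Upk3b (0.14) and Krt19 (-0.15) overlapped between the genotypes. Of all 13587 genes 144 were called lower in KO, the share to set beside this call and those of Cxcl13 and Fcgr1 below. Msln and Krt19 reached the floor only through the wild-type array at 0 h, where they read highest. The summed level of all 8 markers, with Lum below the floor, ran from 8.76 to 8.99 in KO and from 9.44 to 9.58 in wild-type. Among 5 resident peritoneal macrophage markers Cxcl13 fell, whereas Gata6 (-0.046) and Icam2 (-0.21) overlapped. Their summed level ran from 9.29 to 9.97 in KO and from 10.2 to 10.7 in wild-type. That of the 8 macrophage markers ran from 13.6 to 13.8 in KO and from 13.8 to 13.9 in wild-type, and Fcgr1 fell. As a measure of RNA quality, Actb probe sets at the 3′ and 5′ ends differed by 4.36 to 4.64 in KO and 4.09 to 4.22 in wild-type. The Gapdh difference was 4.34 to 4.52 in KO and 4.33 to 4.42 in wild-type. Their part in the members' differences was not tested, and in these bulk samples fewer cells of a type and less RNA per cell cannot be told apart. The single pairs of arrays gave 0 of 7 members at least 2-fold apart at each time, against 1.93%, 0.949% and 1.45% of all genes at 0, 2 and 4 h.

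Whether the LPS response differed between genotypes was asked with a further limma term, the interaction of genotype with stimulation, which left 1 residual degree of freedom. It called 0 of 7 members and 0.0294% of all genes, and the unadjusted p was under 0.05 for 0 members and for 12.8% of all genes. The widest was Irak1, at -0.59 (SE 0.30, 95% interval -1.23 to 0.052, adjusted p = 0.43), and it was 0.19 (adjusted p = 0.823) in 1460649_at. Myd88 had -0.33 (-0.88 to 0.23) and Irak3 0.16 (-0.38 to 0.70). Both intervals included 0 without excluding a smaller response of Myd88 or a larger one of Irak3 in KO.

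By size, 0 of 7 members had a 2-fold response difference at 2 h or at 4 h, against 1.74% and 3.14% of all genes. The change of Irak1 from 0 to 4 h was -0.88 in KO and 0.041 in wild-type, a response difference of -0.92. Centring each array moved the median response difference of all genes at 4 h from 0.12 to -0.15. Relative to that median Irak1 stood at -1.04. Myd88 stood at -0.58, Tirap at -0.45, Traf6 at -0.17, Irak3 at -0.015, Irak2 at 0.067 and Ticam1 at 0.27 relative to it. Centring shifts all genes of an array alike, so it cannot change these relative values.

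The Irak3 probe sets differed on this point. In 1435040_at the response was 1.85 and 2.44 in KO and 1.64 and 2.34 in wild-type at 2 and 4 h. In 1430704_at it was 1.003 and 0.92 in KO and 2.11 and 1.82 in wild-type, an interaction of -1.01 (SE 0.26, unadjusted p = 0.00199, adjusted p = 0.181 in the fit of every probe set). KO minus wild-type in that probe set had values of 0.26, -0.85 and -0.64 at 0, 2 and 4 h. Which part of the transcript each reads was not analysed here.

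**Figure D4:**
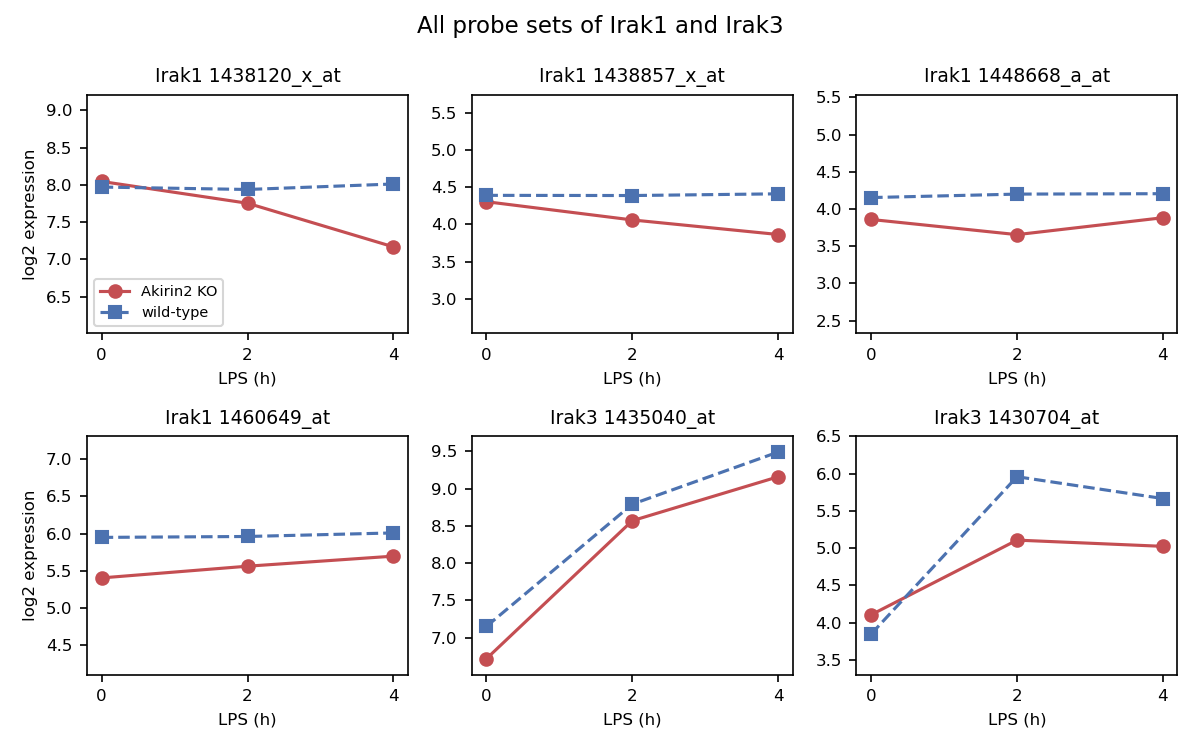
Log2 expression (y axis, the same span in each panel) against hours of LPS (x axis) for the 4 probe sets of Irak1 and the 2 of Irak3, with Akirin2 KO in red circles and wild-type in blue squares, 1 array per point. Wild-type Irak1 is level in all 4, the KO gap widens with time in both probe sets ending in _x_at, and the genotypes part after LPS in 1430704_at of Irak3 but not in 1435040_at.

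The other genes of the pathway were taken from a list of 52, of which 45 were tested. Of these 11 rose at 2 h, where 3.96% of all genes did, and 13 rose and 2 fell at 4 h, where 7.76% of all genes rose. The list was chosen with earlier results of these data known, so these counts are a description and no test of the pathway. Among 14 receptors and accessory proteins 4 rose at each time: Tlr2, the lipoprotein receptor (3.01 and 2.84), Tlr1, its partner (1.5 and 2.31), Cd14, the LPS carrier of the cell surface (1.74 and 1.53), and Tlr7 (1.28 and 1.33). Tlr13 (-0.77) and Ly86 (-0.84) fell at 4 h. Of 7 ubiquitin ligases and linear ubiquitin genes 1 rose, Peli1, a ligase that acts on IRAK proteins (1.45 and 1.87).

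Of 10 kinases and their partners below TRAF6 and TRAF3, the LPS test passed for 3 at 2 h and for 4 at 4 h, all higher. They included Tank, a TRAF-binding scaffold (1.68 and 1.79), and the kinase gene Ikbke (0.94 and 1.62). Of 7 inhibitors 2 rose at each time, Tnfaip3, the deubiquitinase A20 (3.20 and 2.74), and Tank, which is on both lists. Among 5 other TRAF genes Traf1 (3.31 and 3.88) and Traf5 (1.54 and 1.91) rose. Between genotypes 1 of the 45 passed, a share near the 1.95% of all genes. It was Irf7, an interferon-inducing factor, which was lower in KO than in wild-type by 0.77 (adjusted p = 0.0373 in limma), and 0 passed the interaction. The KO values of Irf7 at 0 and 2 h, 3.19 and 3.05, lay below the medians of those arrays, 3.23 and 3.18. With LPS, Irf7 rose by 1.46 at 4 h (adjusted p = 0.000874 in limma).

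**Figure D5:**
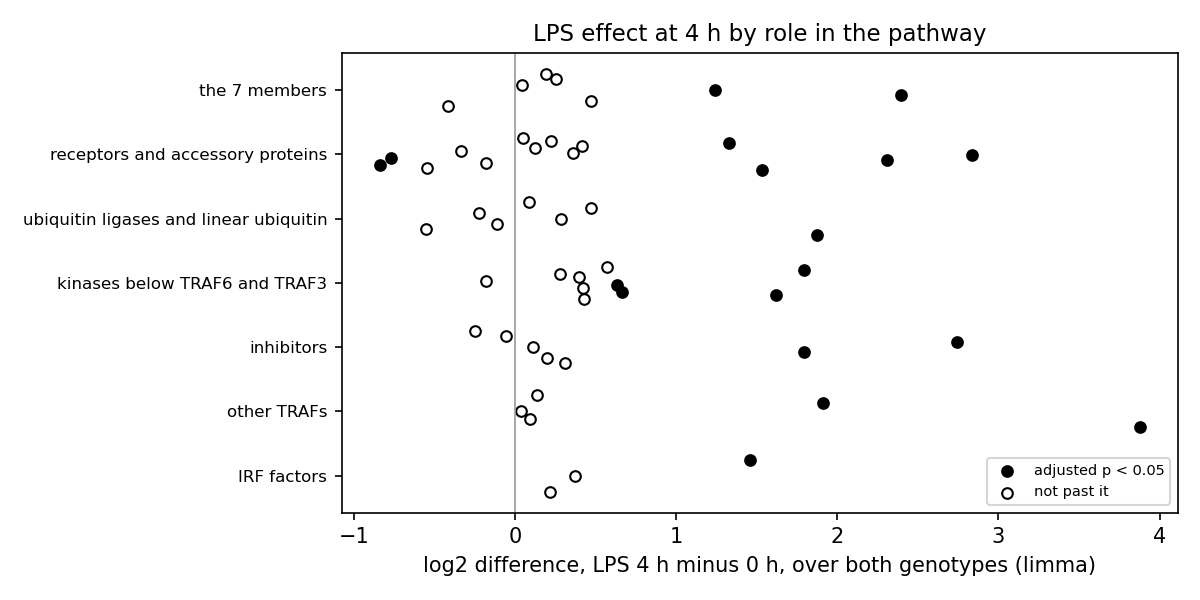
Limma estimate of the LPS effect at 4 h over both genotypes (x axis, log2 difference from 0 h) for each tested gene, in rows by role with the 7 members on top. Filled points had an adjusted p under 0.05; Traf1 is farthest right, and the filled points left of 0 are Ly86 and Tlr13.

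Among other genes with a range of at least 1 log2 unit over the 6 arrays (2239 for Irak3 and Myd88, 2240 for Irak2), the pattern of Irak3 was most like those of Vasp (Pearson r = 0.999), Ccl5 (0.998) and Slc31a1 (0.997). That of Myd88 was most like those of Tmem243 (0.996), Irf1 (0.994) and Ggct (0.994). That of Irak2 was most like those of Abhd17c (0.991), Rbm12 (0.99) and Rnd1 (0.986). Each r is over 6 arrays that share the LPS times, is a description with no test, and was over 0.95 for 180, 121 and 25 genes. Between members, Irak3 and Myd88 had an r of 0.96, Tirap and Traf6 0.94, and Irak1 and Irak3 -0.44.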

How the data were processed

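Affymetrix mouse arrays of macrophages from 2 genotypes at 3 times of LPS were analysed, 1 array for each of 6 conditions. The deposited values are log2 expression, 1 per probe set, and the submitters' processing notes name RMA for them. No version of it is given in the sources used here. RMA equalises array distributions, so a change shared by most genes would be removed. Of 45101 probe sets 34958 had 1 symbol in the platform annotation, 932 several and 9211 none here. Genes, represented by their brightest probe set, were kept where they reached the array median on at least 1 array. limma 3.58.1 in R 4.3.3 (lmFit, eBayes, Benjamini-Hochberg over all 13587 genes, threshold 0.05) fitted LPS time and genotype, then their interaction with stimulation; prior degrees of freedom were 6.35 and 11.5. The fits were tested on simulated data. Single arrays were compared by a 2-fold rule. The members and gene lists were chosen with earlier results of these data known. Named are all members and their probe sets, Akirin2, the 3 genes most like each of the 3 members of widest range, and part of the called pathway genes. Precision is limited by the number of arrays, and there is no sequencing depth. Fits of every probe set were added after the data were seen. Sequences are from RefSeq (GRCm38.p6).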

Additional observations from a re-analysis of the deposited data

Results flagged for a closer look

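The Ticam1 response had opposite signs in the genotypes on the deposited scale. It was 0.40 at 2 h and 0.23 at 4 h in KO, and -0.14 and -0.15 in wild-type, so each KO value lay above 0 and each wild-type value below it. The interaction of genotype with stimulation was 0.46 (SE 0.25) with an adjusted p of 0.471 in limma, so the difference did not pass its test. With each array centred, the wild-type response was 0.012 and 0.018, no longer below 0, and the interaction was 0.25 (adjusted p = 0.779). Ticam1 read between 3.39 and 3.97, near the array median, and the KO array at 0 h was the lowest of the 6. Its only probe set is of a kind that may bind other transcripts (_s_at). No condition had enough arrays to look for a single outlying sample.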

How the results depend on the processing

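No paired analysis was possible because each condition had 1 array and the labels give no replicate numbers. Of the alternative counts of members 86 stayed within 1.5 times of the value reported and 13 did not. The LPS calls of Irak3, Myd88 and Irak2 at 2 h and of Irak3 and Myd88 at 4 h held under every alternative in which they were tested, with adjusted p-values up to 0.0322 for Irak2. The genotype test called 1 member, Irak3 (-0.33, adjusted p = 0.0347), with eBayes set to trend and robust, where 6.50% of all genes were called, and 0 in the other 9 alternatives. At a 1.5-fold rule the counts became 3 for KO at 2 h, 2 for KO and 1 for wild-type from 2 to 4 h, 2 between genotypes at 4 h and 1 for the response difference at 4 h. At a 3-fold rule they became 1 for KO at 4 h and 1 for wild-type at 2 h and at 4 h. With arrays centred or quantile normalization again, 1 member was 2-fold higher in KO at 4 h, since Myd88 stood at 0.91 and 0.88, and 1 had a 2-fold response difference at 4 h, Irak1 (-1.19 and -1.004). The share of all genes was not counted under these other fold rules and scalings, so these counts cannot be set against it. Centring also moved the median difference of all genes between genotypes from -0.074 to 0.087 at 0 h and from 0.030 to -0.076 at 4 h, and the members' estimates over the 3 times stayed below 0 in each gene-level alternative that tested them. Over all genes the genotype test called 121 higher and 144 lower in KO, against 81 and 95 with probe sets averaged, 76 and 66 with arrays centred, 72 and 86 without the 2 h arrays, 370 and 294 without the 0 h arrays, and 419 and 464 with trend and robust. The interaction called 1 and 3, against 20 and 42 with quantile normalization again, 155 and 101 with trend and robust, and 0 or 1 in all with the others. The 2 h LPS calls were 841 and 828 with trend and robust. Ticam1 had no value without _x_at and _s_at probe sets or with the floor at the 75th percentile. The causes were not tested.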
